A study of Mus musculus with 8 samples.

Results

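The lectin genes described here are C-type lectin receptors of the Dectin and DCIR groups, 9 genes chosen by name: Clec4a1, Clec4a2, Clec4a3, Clec4d, Clec4e, Clec4n, Clec7a, Clec10a and Clec12a. Values were taken for 8 of them, out of 16889 genes in the count table, and Clec7a was not analysed here. The cells were sorted from the colonic lamina propria of CD98hcΔCX3CR1 female littermates as CD11b+ cells with CCR2 or CD64, and their RNA was counted by single-cell RNA sequencing of transcript 3′ ends with unique molecular identifiers (UMIs). All mice carried a floxed CD98hc gene (Slc3a2) and a tamoxifen-inducible Cre with a YFP reporter driven from the Cx3cr1 locus, so that recombination was limited to cells that had expressed Cx3cr1. The 4 cKO mice were given tamoxifen (100 µl of 20 mg/ml, injected into the peritoneum) on 5 consecutive days and the 4 control mice corn oil, with readout at day 7; tamoxifen itself and the deletion therefore cannot be told apart in this comparison.

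C-type lectin receptors bind sugars, glycolipids and products of damaged cells on the surface of myeloid cells. The activating members are coupled to the adaptor FcR gamma (Fcer1g), or carry an activating motif of their own, and signal through the kinase Syk and the adaptor Card9 to cytokine genes. The inhibitory members carry a cytoplasmic motif that recruits the phosphatases Shp-1 (Ptpn6) and Shp-2 (Ptpn11). In the gut these receptors are known for the recognition of fungi and mycobacteria by macrophages, monocytes and dendritic cells.

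Clec4e and Clec4d, which encode Mincle and its partner MCL, were higher in cKO than in control mice when all cells of a mouse were summed, and Clec10a, which encodes the galactose-binding endocytic lectin MGL1, was lower. The other 5 members did not pass the test. Clec4e stood high in the monocyte-like cells and in a cluster led by Ccl24, and within the monocyte-like cluster it was called higher in the cKO mice, a call that several settings did not keep. The DCIR genes Clec4a1 and Clec4a2 were highest on average in macrophage-like cells of low depth. Their ranges over mice overlapped those in the other macrophage-like cluster. Clec4n (Dectin-2) stood high in both macrophage-like clusters and in the Ccl24-led cluster, and Clec10a in one part of the dendritic-like cells of control mice.

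Of the members, 6 lie in one block of 368.0 kb at chr6:122921848-123289870 (GRCm38, GENCODE vM21), in the order Clec4a1, Clec4a3, Clec4a2, Clec4n, Clec4d and Clec4e. Clec4d (ENSMUSG00000030144) at chr6:123262111-123275265 on the plus strand and Clec4e (ENSMUSG00000030142) at chr6:123281789-123289870 on the minus strand are neighbours whose 3′ ends face each other across 6.5 kb with no protein-coding gene between. Clec12a and Clec7a lie 96.3 kb apart further along chromosome 6, and Clec10a (ENSMUSG00000000318) at chr11:70156197-70170834. Clec4a2 overlaps the annotated gene Gm44132 on the same strand, and none of the members overlaps an annotated gene on the other strand. Clec10a shared 221 of its 3229 windows of 58 bases (the read length) with transcripts of its paralog Mgl2. Clec4a2 shared 164 of its 2975, 106 of them with Clec4a4 and 44 with Clec4b1. In the last 500 bases of the transcripts, nearest to the 3′ ends counted, 221 of 1977 windows of Clec10a and 137 of 1870 of Clec4a2 were shared. Reads from shared stretches could not be assigned to 1 gene, so the levels of these genes are uncertain by an amount that was not measured. No window of Clec4a1, Clec4a3, Clec4d or Clec4e was shared.

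The RefSeq promoters of the neighbouring genes Clec4d and Clec4e are shown because both genes were called in the same direction. Each is the 250 bases before the start of transcription (GRCm38.p6), chr6:123261857-123262106 on the plus strand for Clec4d and chr6:123289872-123290121 on the minus strand for Clec4e, and capitals mark matches on either strand to TTNCNNAA (C/EBP) or GGAAGT (PU.1).
Clec4d: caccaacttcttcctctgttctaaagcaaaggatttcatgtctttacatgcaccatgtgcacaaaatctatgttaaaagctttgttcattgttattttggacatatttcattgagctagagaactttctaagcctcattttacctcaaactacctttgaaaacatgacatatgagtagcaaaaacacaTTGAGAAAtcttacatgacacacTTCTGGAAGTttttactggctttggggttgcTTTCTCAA
Clec4e: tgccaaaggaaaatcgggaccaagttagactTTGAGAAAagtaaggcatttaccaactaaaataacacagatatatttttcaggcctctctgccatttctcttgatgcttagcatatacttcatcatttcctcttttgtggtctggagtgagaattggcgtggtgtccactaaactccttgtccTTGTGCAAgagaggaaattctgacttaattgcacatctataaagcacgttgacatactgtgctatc
The Clec4d promoter held 3 C/EBP matches and 1 PU.1 match that overlaps 1 of them, and the Clec4e promoter held 2 C/EBP matches. Of all 32851 promoters of this length, 36.85% held the C/EBP letters and 19.74% the PU.1 letters. Neither promoter held TGANTCA (AP-1) or the letters searched for NF-kB or for the interferon response element, which 6.75%, 1.41% and 2.98% of all promoters held. Promoters were found for 7 of the 9 members. Members that were not called held such letters too: the Clec4a2 promoter held 2 C/EBP and 2 PU.1 matches, and the Clec12a promoter 2 C/EBP matches and 1 AP-1 match. The matches are thus not particular to the called genes and are a description of letters only.

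After filtering, 3213 cells were kept, 1863 of control and 1350 of cKO mice, with 83 to 724 cells and 497531 to 3762314 UMIs per mouse. Control replicate 3 and cKO replicate 5 had only 85 and 83 cells, and 24 of the cells of cKO replicate 5 were called doublets. Among kept cells 8 barcode codes occurred in more than 1 library. Slc3a2 itself stood at 326 ± 110 CPM (UMIs scaled to library size, TMM-normalised; SD, n = 4) in control and 332 ± 32.8 CPM in cKO mice, a log2 fold change of 0.02, and a 3′ count does not show whether the floxed part was lacking, so that it does not check the labels. The cells did not fully match their label of monocytes and macrophages: 183 cells clustered as lymphoid-like, 86 as stromal-like and 508 as dendritic-like. Monocyte-like cells made up 20.5% to 49.2% of the cells of cKO mice and 2.35% to 12.4% of those of control mice, and dendritic-like cells 4.75% to 8.43% and 18.9% to 27.1%. These shares move with every value summed over all cells below, and in such sums more cells of a type and more RNA per cell cannot be told apart.

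The first comparison asked whether the lectin genes differed between cKO and control mice over all cells. UMIs were summed per mouse and tested with edgeR's quasi-likelihood test over 11387 genes, with Benjamini-Hochberg adjustment and a threshold of 0.05. It called 3 of 8 members, against 4.48% of all genes tested: 2 were higher (2.99% of all genes) and 1 lower (1.48%). The plot of members by mouse shows the values of all 8 mice.

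Clec4e, the receptor for the mycobacterial glycolipid trehalose dimycolate, stood at 66.9, 33.5, 128 and 186 CPM in control replicates 1 to 4 and at 292, 426, 793 and 396 CPM in cKO replicates 5 to 8. Every cKO mouse was above every control mouse, as for 5.85% of all genes tested, and cKO replicate 7 was the highest. The log2 fold change was 2.23 (SE 0.46, edgeR adjusted p = 0.020, n = 4 per group). The call was lost without control replicate 1 (adjusted p = 0.0720) and without cKO replicate 7 (adjusted p = 0.0603).

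Clec4d, which forms a receptor complex with Mincle, stood at 23.1, 13.7, 40.9 and 42.6 CPM in the control mice and at 57.2, 90.8, 143 and 94.9 CPM in the cKO mice. The groups did not overlap here either, as for 5.85% of all genes tested in the same direction. This was a log2 fold change of 1.79 (SE 0.35, edgeR adjusted p = 0.015), and without control replicate 1 the adjusted p was 0.0635.

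Clec4n, the Dectin-2 receptor for fungal mannans, stood at 288, 266, 314 and 560 CPM in the control mice and at 331, 502, 580 and 487 CPM in the cKO mice. The groups overlapped through control replicate 4, which was far above the other 3 control mice. The log2 fold change was 0.42 (SE 0.24, edgeR adjusted p = 0.37), and without control replicate 4 it was 0.71 with an adjusted p of 0.0446.

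Clec4a2 encodes the inhibitory receptor DCIR. It stood at 308, 266, 215 and 310 CPM in the control mice and at 333, 342, 401 and 397 CPM in the cKO mice. The log2 fold change was 0.42 (SE 0.15, edgeR adjusted p = 0.14). Its paralogs Clec4a1 and Clec4a3 had log2 fold changes of 0.49 (SE 0.16, adjusted p = 0.11) and 0.70 (SE 0.20, adjusted p = 0.067). The groups did not overlap for any of these 3 genes, as for 5.85% of all genes tested in the same direction. With the dendritic-like, lymphoid-like and stromal-like clusters left out of the sums, a choice made after the data were seen, the log2 fold change of Clec4a1 was -0.08, that of Clec4a2 -0.09 and that of Clec4a3 0.15, while Clec4e (1.64) and Clec4d (1.24) were still called.

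Clec12a, the inhibitory receptor MICL, stood at 148, 150, 104 and 91.4 CPM in the control mice and at 182, 126, 79.3 and 137 CPM in the cKO mice, so that the groups overlapped. Its log2 fold change was 0.05 (SE 0.24, edgeR adjusted p = 0.95).

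Clec10a stood at 125, 73.9, 160 and 115 CPM in the control mice and at 47.0, 33.2, 11.6 and 60.6 CPM in the cKO mice. Every cKO mouse was below every control mouse, as for 6.11% of all genes tested. This was a log2 fold change of -1.65 (SE 0.39, edgeR adjusted p = 0.037). The call was lost with doublet calls left out (adjusted p = 0.0684) and without both libraries under 100 cells (adjusted p = 0.0808), and without any 1 of control replicates 1, 2 and 3 and cKO replicates 5 and 6 (0.0516 to 0.0955), but not with the dendritic-like, lymphoid-like and stromal-like clusters left out (log2 fold change -1.54, adjusted p = 0.0140).

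**Figure D1:**
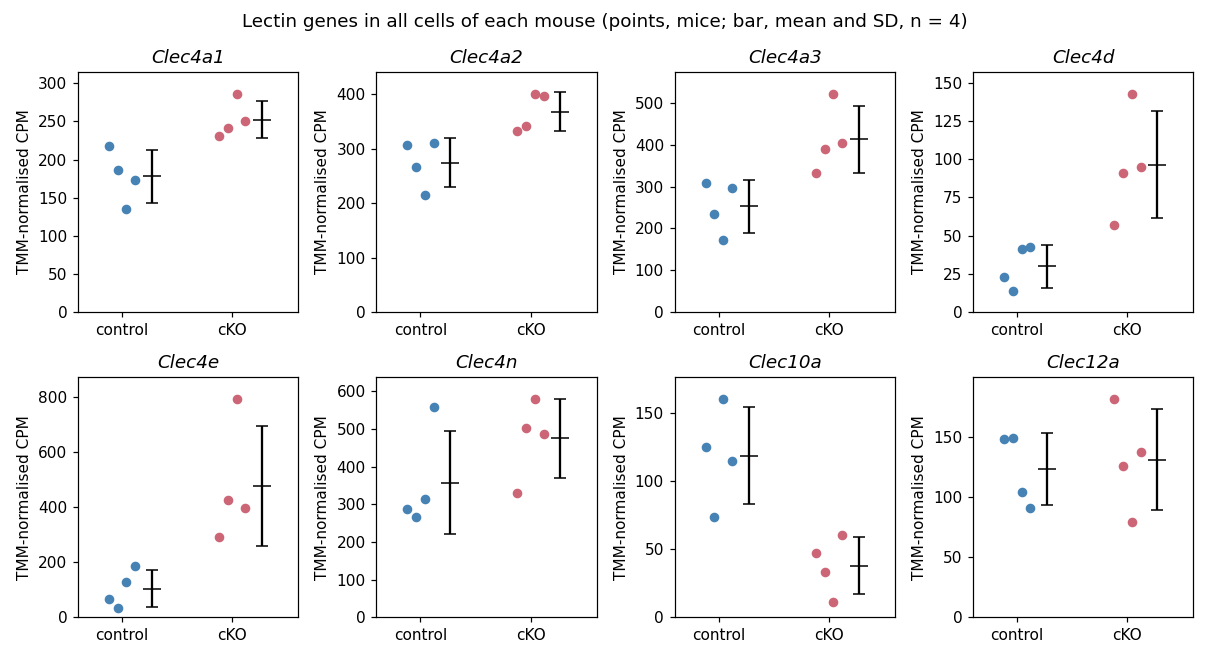
TMM-normalised CPM of each lectin gene in all cells of each mouse, with 1 point per mouse and the mean and SD of 4 mice beside them. Clec4e and Clec4d lie higher and Clec10a lower in every cKO mouse than in any control mouse, and the groups overlap for Clec4n and Clec12a.

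The sum of the activating members measured (Clec4d, Clec4e and Clec4n) over the sum of the inhibitory members (Clec4a2 and Clec12a) was set side by side per mouse, with no test. The log2 ratio was -0.27, -0.41, 0.60 and 0.97 in control replicates 1 to 4 and 0.40, 1.12, 1.66 and 0.87 in cKO replicates 5 to 8, so that the groups overlapped. Capture of 3′ ends can differ between genes, so the ratio is compared between mice only and its sign is not read. The make-up of the activating sum did not overlap between groups: Clec4e made up 10.7% to 26.5% of its UMIs in the control mice and 40.5% to 52.3% in the cKO mice, and Clec4n 65.0% to 84.9% and 38.3% to 49.8%. These shares are parts of the same sum and restate the levels above, so they are no separate result. The lower share of Clec4n is not a lower level, as its log2 fold change over all cells was positive and not called.

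**Figure D2:**
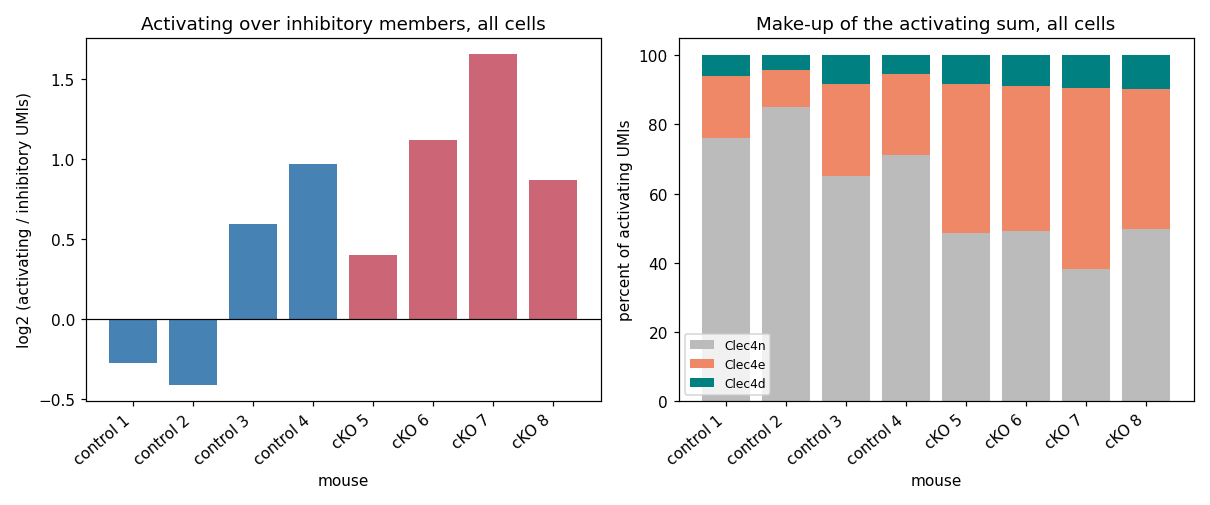
Left, log2 ratio of activating (Clec4d, Clec4e, Clec4n) to inhibitory (Clec4a2, Clec12a) UMIs in each mouse, where the bars of both groups overlap in height. Right, percent of activating UMIs from each gene, where the share of Clec4e is 40.5% or more in each cKO mouse and 26.5% or less in each control mouse.

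The second question was which cells carried these transcripts. Cells were clustered without the lectin genes, and levels are CPM of the UMIs of a mouse's cells in a cluster, for mice with at least 20 such cells, given as mean ± SD over mice of both conditions with no test. Clusters were called by their markers or, where these did not name them, by their leading gene. The monocyte-like cluster was led by Dmkn and Chil3, the macrophage-like cluster by H2-M2, C1qc and C1qa, and a second macrophage-like cluster of low depth (median 1214 UMIs per cell) by Ccl8, Pf4 and Folr2. The unnamed clusters were led by Ccl24, by Ifit3b and by Cebpb, the last with a median of 1940 UMIs per cell.

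Among activating members, Clec4e stood at 603 ± 352 CPM in the monocyte-like cluster (n = 6), 514 ± 191 in the Ccl24-led (n = 5), 301 ± 259 in the Cebpb-led (n = 6) and 226 ± 94.0 in the Ifit3b-led cluster (n = 5). These 4 neighbours in the order did not differ beyond their spread. In control mice the Ccl24-led cluster averaged 344 CPM (n = 2) and the monocyte-like cluster 325 CPM (n = 3). In cKO mice they averaged 628 and 882 CPM (n = 3 each). The 2 control means rest on different mice, as control replicate 2 had only 11 Ccl24-led cells. Within mice, Clec4e was higher in the Ccl24-led than in the monocyte-like cluster in 1 of 5. It stood at 44.4 ± 30.9 in the macrophage-like (n = 4), 28.6 ± 32.8 in the low-depth macrophage-like (n = 6) and 13.98 ± 8.42 in the dendritic-like cluster (n = 7). Clec4d followed it in the monocyte-like cluster, at 154 ± 62.2 CPM, but was also 125 ± 65.6 in the low-depth macrophage-like cluster, against 14.7 ± 2.71 in the macrophage-like cluster.

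Clec4n had another order. It stood at 977 ± 222 CPM in the low-depth macrophage-like, 902 ± 172 in the Ccl24-led and 746 ± 250 in the macrophage-like cluster, which did not differ beyond their spread, and at 289 ± 141 in the monocyte-like cluster. In the cKO mice alone the Ccl24-led cluster was the highest of these, at 945 CPM against 915 in the low-depth macrophage-like cluster. Within mice, Clec4n was higher in the low-depth macrophage-like than in the monocyte-like cluster in 6 of 6, and Clec4e lower in 6 of 6. Clec4e made up 55.4% ± 6.08 of the activating UMIs in the monocyte-like cluster and 5.23% ± 3.08 in the macrophage-like cluster, where Clec4n made up 92.8% ± 3.08.

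The inhibitory members differed from each other. Clec4a2 stood at 793 ± 160 CPM in the low-depth macrophage-like and 618 ± 84.3 in the macrophage-like cluster, and at 263 ± 54.7 in the monocyte-like cluster. Clec12a stood at 216 ± 56.1 CPM in the Ifit3b-led and 184 ± 76.8 in the monocyte-like cluster, and at 60.0 ± 17.2 in the Ccl24-led cluster. The place of the monocyte-like cluster rests on the control mice, at 235 CPM against 134 in the cKO mice. Clec4a1 had the order of Clec4a2 at its top (616 ± 171 and 415 ± 42.6 CPM), and Clec4a3 stood between 374 and 592 CPM in all 6 clusters that were not dendritic-like, lymphoid-like or stromal-like. Clec4a1, Clec4a2 and Clec4a3 were at or below 76.3 CPM on average in the dendritic-like cluster.

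The dendritic-like cluster was split once more. Its Xcr1-led part (290 cells, with all 7 type 1 markers at least 2-fold higher) held Clec10a at 10.6 ± 17.6 CPM and Clec12a at 166 ± 34.1, over 3 control mice and 1 cKO mouse. Its Cd209a-led part (218 cells) held Clec10a at 501 ± 106 CPM, Clec4n at 335 ± 275 and Clec12a at 42.5 ± 12.7, all over 3 control mice, as no cKO mouse had enough cells there. Clec10a and its paralog Mgl2 followed Cd209a among the genes that led this part. The Cd209a-led part made up 42.1% of control and 46.7% of cKO dendritic-like cells, and its pooled Clec10a level was 515 CPM in control and 417 CPM in cKO cells, the latter from only 43 cells.

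**Figure D3:**
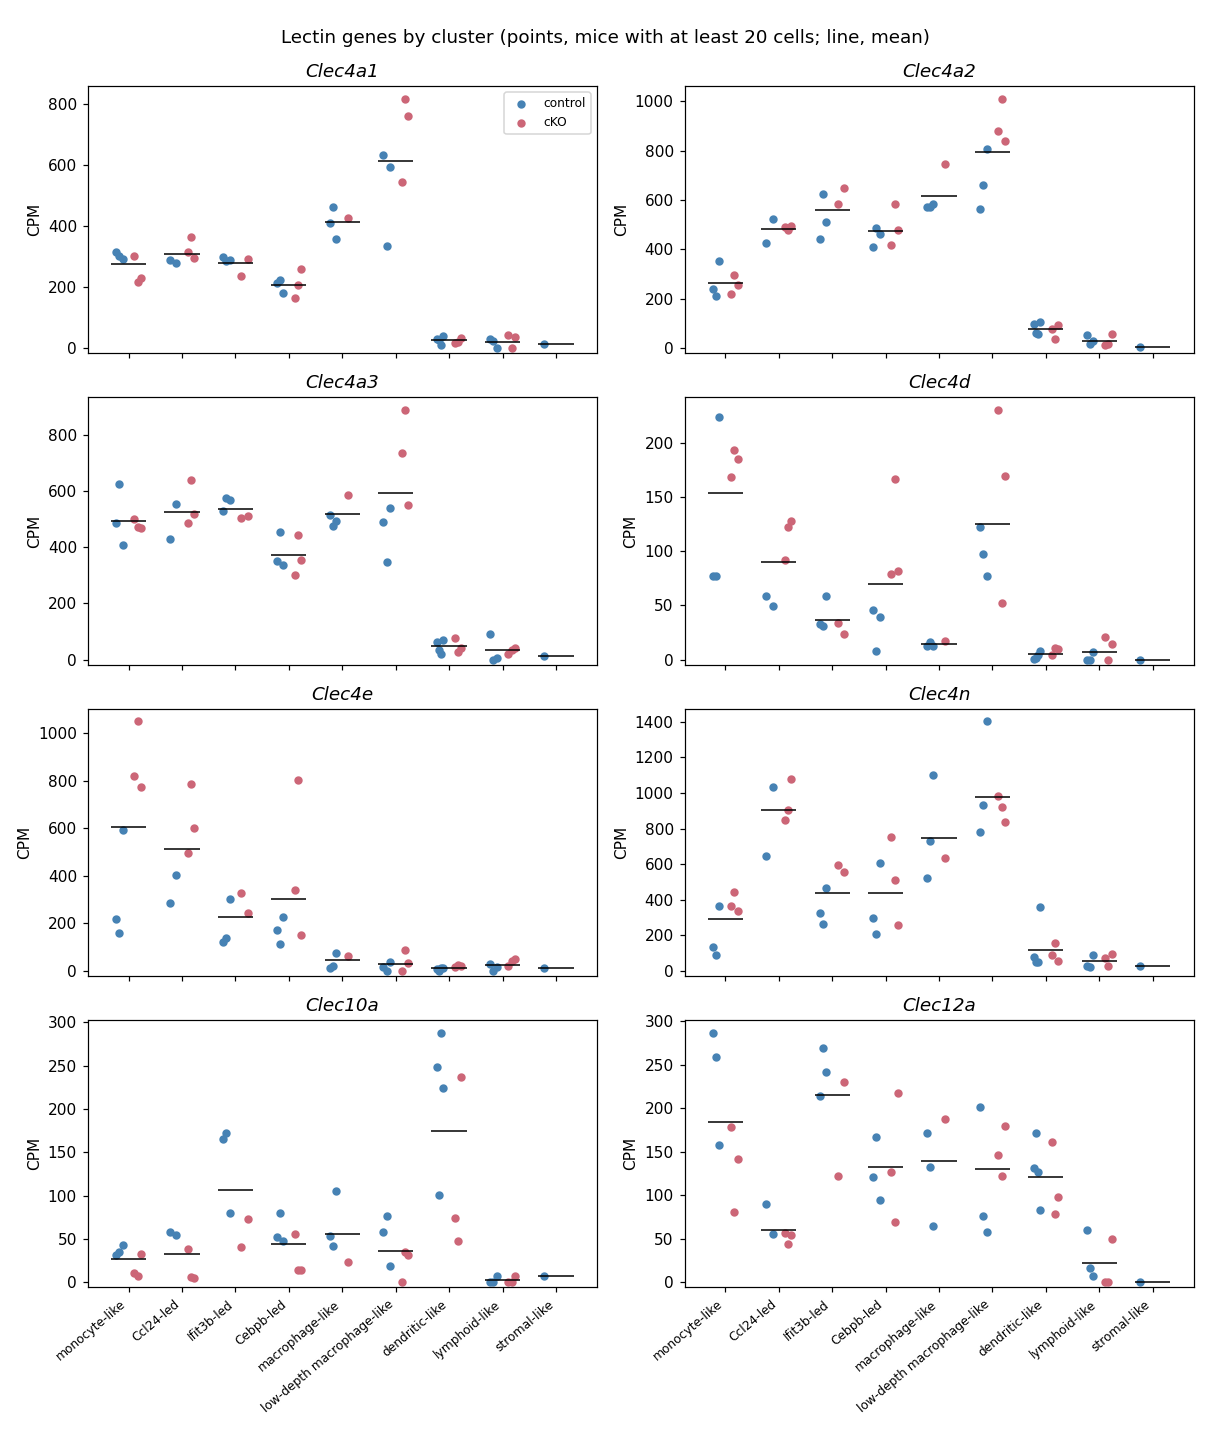
CPM of each lectin gene by cluster, with 1 point per mouse that had at least 20 cells in the cluster, coloured by condition, and the mean as a line. Clec4e is high in the monocyte-like and Ccl24-led clusters and near 0 in both macrophage-like clusters, where Clec4n, Clec4a1 and Clec4a2 are high.

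Single cells gave the same picture for Clec4e. A UMI of Clec4e was found in 71.2% of the 650 monocyte-like cells (95% Wilson interval 67.6% to 74.6%) and in 10.9% of the 183 lymphoid-like cells, a type that should lack it, at median depths of 4748 and 3574 UMIs. With each cell thinned to 1000 UMIs, which left out 24 monocyte-like and 2 lymphoid-like cells, the shares were 43.99% and 1.91%. These values pool both conditions, and 493 of the 650 monocyte-like cells were from cKO mice. The monocyte-like share was 49.7% in control and 78.1% in cKO cells, and 27.1% and 49.5% after thinning. The low-depth macrophage-like share after thinning was 1.98%. The macrophage-like share was 2.36% in control and 4.11% in cKO cells, beside lymphoid-like shares of 1.001% and 2.78%. Intervals cover counting error only.

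The third comparison asked whether the lectin genes differed between conditions within a cluster. The 4 clusters with at least 3 mice per condition were fitted together over 10679 genes. Clec4e in the monocyte-like cluster was the 1 call among the members, where 0.712% of all genes were called higher. It stood at 219, 161 and 594 CPM in control replicates 1, 2 and 4 and at 822, 1050 and 775 CPM in cKO replicates 6, 7 and 8. All 3 cKO mice were above all 3 control mice, and control replicate 4 was nearest to them. The share of all genes with such a separation in this cluster was not counted. The log2 fold change of Clec4e was 1.56 (SE 0.39, edgeR adjusted p = 0.032). The call was lost with DESeq2 (adjusted p = 0.111), with sums from 10 cells (0.144), with clustering on all genes (0.414), with 7 clusters (0.0595) and without any 1 of control replicates 1 and 2 and cKO replicates 6, 7 and 8 (0.0540 to 0.316).

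The log2 fold change of Clec4e was 1.26 (SE 0.48) in the Cebpb-led and 1.46 (SE 0.77) in the dendritic-like cluster, and lay between the latter and the monocyte-like value in the low-depth macrophage-like cluster (SE 1.31), none of them called. In the dendritic-like cluster Clec4e averaged 8.26 CPM in control and 21.6 CPM in cKO mice, and in the low-depth macrophage-like cluster 17.6 and 39.6 CPM. The lymphoid-like cells stood at 14.9 and 37.5 CPM, so that both clusters were near or below the level in cells that should lack the gene. Of all genes, 0.0655%, 0.187% and 0.159% were called higher in these 3 clusters, and 0%, 0.0281% and 0.103% lower, with 0.103% lower in the monocyte-like cluster. A test that the effect was equal in the 4 clusters called 0 of 8 members with edgeR, 0 at an unadjusted p under 0.05, and 0 with limma-voom. The edgeR test called 0 of all 10679 genes too, so it does not show that the effects on the members were alike between clusters. Clec4d had log2 fold changes of 0.54 to 1.63 in the 4 clusters and Clec10a of -1.12 to -0.82, with no call. Some of these rest on few counts. Clec4d in the dendritic-like cluster had 13 UMIs in control and 6 in cKO mice. It averaged 3.54 and 8.03 CPM there, beside 2.42 and 11.8 CPM in the lymphoid-like cells. Clec10a in the low-depth macrophage-like cluster had 16 UMIs in control and 5 in cKO mice. Without control replicate 4, Clec4d in the monocyte-like cluster went from 0.63 to 1.41 (edgeR adjusted p = 0.0156). With 1 mouse left out, Clec10a in the dendritic-like cluster ranged from -1.87, without cKO replicate 8, to -0.48, without cKO replicate 7, and was never called. Clec4n had 1.05 (SE 0.45, adjusted p = 0.42) in the monocyte-like cluster, and without control replicate 4 it was 1.88 with an adjusted p of 0.00029. Clec4a1, Clec4a2 and Clec4a3 lay between -0.12 and 0.10 in the monocyte-like cluster, and at 0.48, 0.47 and 0.66 in the low-depth macrophage-like cluster (adjusted p = 0.718, 0.680 and 0.584). Sums from 10 cells also allowed a fit in the Ccl24-led, Ifit3b-led and macrophage-like clusters, with no member called. Of all genes, 0.325%, 0.957% and 0.139% were called higher in these clusters, and 0.121%, 0.335% and 0.0743% lower. There Clec4d had log2 fold changes of 1.12, -0.41 and -0.22, and Clec4e of 0.94, 0.11 and 0.39. Those of Clec10a were -1.79, -1.63 and -1.27.

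**Figure D4:**
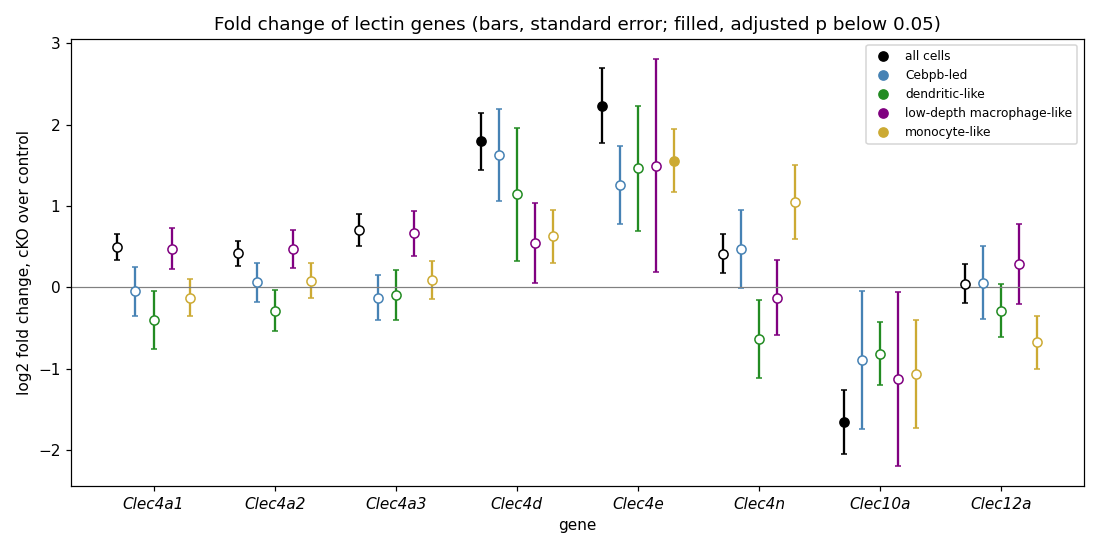
Log2 fold change (cKO over control) of each lectin gene in all cells and in the 4 clusters tested, with the standard error, filled where the adjusted p was below 0.05. The filled points are Clec4d, Clec4e and Clec10a in all cells and Clec4e in the monocyte-like cluster.

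Markers of other cells moved with the condition as well. The 8 monocyte markers summed to 6986 to 10247 CPM in the cKO and 1601 to 3274 CPM in the control mice, and the 7 type 2 dendritic markers to 250 to 693 and 634 to 913 CPM. The 8 neutrophil markers were low in both, at 54.4 to 86.9 and 24.5 to 51.2 CPM. Their part in the results over all cells was not tested.

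Of the genes that carry the signal of these receptors, Fcer1g, the shared adaptor, was the 1 called of 15, where 2.99% of all genes were called higher. It stood at 2612, 1974, 1854 and 2822 CPM in the control mice and at 3138, 3779, 5454 and 3989 CPM in the cKO mice. The groups did not overlap, as for 5.85% of all genes tested in that direction. Its log2 fold change was 0.82 (SE 0.19, edgeR adjusted p = 0.035). The call of Fcer1g was lost with doublet calls left out (adjusted p = 0.0921), with the dendritic-like, lymphoid-like and stromal-like clusters left out (log2 fold change 0.33, adjusted p = 0.313), and without any 1 of control replicates 1, 2 and 3 and cKO replicates 6, 7 and 8 (0.0644 to 0.129). The median log2 fold change of the 15 genes was 0.36, against -0.03 over all genes tested. Of 12 tested genes known to be induced through Syk and Card9, 1 was called, the cytokine subunit Il23a (log2 fold change 4.28, SE 0.93, edgeR adjusted p = 0.025), at 0, 0, 3.41 and 3.23 CPM in the control and 2.04, 6.26, 48.3 and 23.2 CPM in the cKO mice. Its groups overlapped at cKO replicate 5, and its fold rests on control mice at or near 0. The Il23a call was lost with DESeq2 (adjusted p = 0.173) and without any 1 of control replicates 1 and 2 and cKO replicates 7 and 8 (0.0577 to 0.0973).

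Of 15 other C-type lectins tested, 1 was higher and 3 were lower, against 2.99% and 1.48% of all genes. Clec5a, an activating receptor of myeloid cells, had a log2 fold change of 1.13 (SE 0.24, edgeR adjusted p = 0.023). Mgl2, the paralog of Clec10a, fell from 251 ± 37.1 to 55.9 ± 23.5 CPM (log2 fold change -2.12, SE 0.25, edgeR adjusted p = 0.001). Clec9a, a marker of type 1 dendritic cells, had -1.90 (SE 0.47, adjusted p = 0.041) and Klrb1b -1.05 (SE 0.26, adjusted p = 0.045). The calls of Clec5a (adjusted p up to 0.150), Clec9a (up to 0.155) and Klrb1b (up to 0.150) were each lost under some settings or without 1 mouse, and that of Mgl2 under none that was run.

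Over 46 sums per mouse and cluster, the genes whose level was most like that of Clec4e were Hp, F10 and Thbs1 (Pearson r of log2 CPM 0.921, 0.909 and 0.908). For Clec4d they were Atp6v1e1, Prdx5 and Ninj1 (0.864, 0.843 and 0.838), and for Clec4n C5ar1, Fth1 and Ctsz (0.908, 0.907 and 0.902). Clec4a1 was most like Ctsc, Fcer1g and Fcgr3, Clec4a2 like Cd300c2, Clec4b1 (with which it shares sequence) and Lst1, and Clec4a3 like Fcgr3, Lst1 and Csf1r, with r of 0.935 to 0.966. Clec12a was most like Pld4, Rassf4 and Mpeg1 (0.873, 0.854 and 0.830), and Clec10a like Batf3, Plbd1 and H2-DMa (0.794, 0.793 and 0.777). Among the members, Clec4a1, Clec4a2 and Clec4a3 had r of 0.926 to 0.939 with each other, and Clec4d and Clec4e 0.612. The sums share mice, libraries and depth, so these values are descriptions.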

How the data were processed

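Single cells of 8 mice were sequenced in 8 wells of 1 cartridge on the same day, and no batch term was used. The authors deposited 1 table of UMI counts per gene and cell, whole numbers without normalization, made with Cell Ranger and STAR 2.5.3a on mm10 with the EYFP sequence added. Samples were matched to columns through the sample labels. The members and gene lists were chosen with earlier results of these data known.

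Cells were kept from 10 to the power 2.8 UMIs and 2.6 genes, with at most 5% mitochondrial UMIs and no hemoglobin UMI. Doublets were called with Scrublet (scanpy 1.11.5) per mouse and kept. Cells were clustered by Ward's method into 9 clusters (scran 1.30.0, scuttle 1.12.0) without the members, the gene lists, Slc3a2 and EYFP. A cluster was named where at least 2 markers of a class were among its 10 leading genes and at least 3 markers were 2-fold higher, a rule chosen after the clusters were seen. Tests used edgeR 4.0.16 (R 4.3.3) on the summed counts of each mouse, and of each mouse within a cluster where it had 20 or more cells, for genes above 1 CPM in at least 3 sums and with a UMI in at least 20 cells. DESeq2 1.42.0 and limma 3.58.1 were alternatives. CPM over all cells were TMM-normalised, and CPM of clusters were not. The genes named are the members, Slc3a2, the 3 genes most like each member and the called genes of the lists, up to 5 of each. On simulated data with 200 genes changed 4-fold, the fit over all cells recovered 173 and called 3 others. The fit within clusters recovered 129 in the monocyte-like cluster and called 10 others. All genes were simulated with the same spread and with no effect shared by the sums of a mouse. These rates may therefore not hold for the real counts.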

Additional observations from a re-analysis of the deposited data

Results flagged for a closer look

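In the control mice, Clec4n over all cells had 1 mouse apart from the others: the gap of replicate 4 (560 CPM) to the next mouse was 0.837 of the whole range, above Dixon's critical value for 4 samples. In the dendritic-like cluster the same control mouse (357 CPM) stood apart from the other 3 (47.4 to 80.2 CPM), with a gap of 0.894 of the range. Both flags come from the same mouse, 24 groups were looked at, and chance flags about 1 in 20.

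The 381 cells left out for a mitochondrial share above 5% were used only in the setting with no mitochondrial limit. In them Clec4e stood at 589.0 CPM or more in each cKO mouse and at 508.9 CPM or less in each control mouse. Clec10a was separated as well, at 32.0 CPM or less in each cKO mouse and 46.5 CPM or more in each control mouse. The share of all genes with such a separation in these cells was not counted. Counts there were small, from 2 to 51 UMIs of Clec4e in the control mice and from 15 to 70 in the cKO mice. For Clec10a they were from 2 to 11 and from 0 to 2.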

How the results depend on the processing

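No paired analysis was possible because the control and cKO mice share no replicate number. Over all cells, the number of members called was 2 to 4 under the other settings, and 0 to 4 when 1 mouse was left out, against 3. The 0 was without control replicate 1. Signalling genes called went from 1 to 0 with doublet calls left out, and were 0 to 2 with 1 mouse left out. Target genes called went from 1 to 4 with DESeq2, to 6 with no low-count filter, to 2 with no mitochondrial limit and to 2 with lymphoid-like and stromal-like clusters left out, and were 0 to 5 with 1 mouse left out. Other lectins called went from 4 to 2 with doublet calls left out, and were 1 to 5 with 1 mouse left out. Totals over all genes are given below for some of these settings only. A rise or fall of these counts is therefore not read as particular to the members or lists. Within clusters, the 1 member called became 0 with DESeq2, sums from 10 cells, clustering on all genes or 7 clusters. With 12 clusters the number called was also 0, but the cluster matched to the monocyte-like one was not tested there. The number became 3 with no low-count filter (Clec4e in the monocyte-like and Cebpb-led and Clec4n in the monocyte-like cluster), and was 0 to 3 with 1 mouse left out. The difference of effect between clusters called 1 member, Clec4n, with no low-count filter, an alternative added after the data were seen, and 0 otherwise. Under 12 clusters and clustering on all genes the clusters themselves differ. The cluster with the highest level was the same for 6 of 8 members with sums from 10 cells and with clustering on all genes. The cKO minus control difference of the log2 ratio of activating to inhibitory members was 0.79, 0.62 with Clec4a1 and Clec4a3 added to the inhibitory sum, and 0.58 to 1.04 with 1 mouse left out. Over all genes, 510 were called, 145 without control replicate 2, 166 without control replicate 1, 187 without cKO replicate 7, 267 without cKO replicate 8 and 330 with the dendritic-like, lymphoid-like and stromal-like clusters left out. The cause of these changes was not tested. DESeq2 and no low-count filter also called Clec4a3 over all cells (adjusted p = 0.0395 and 0.0437).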
